A study of Macaca mulatta with 24 samples.

Results

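Inflammatory cytokine genes and the genes of their receptors, decoys and antagonists were followed in the visceral fat of female rhesus macaques. The set named 10 genes: the ligands *IL6*, *IL1B*, *TNF*, *IL18* and *IL33*, the receptor subunits *IL1R1*, *IL1RAP* and *IL6R*, the antagonist *IL1RN* and the decoy receptor *TNFRSF11B*. Each was looked up in the raw counts by the Ensembl identifier that the gene name table pairs with its symbol. Of these, 8 matched a row among the 32386 genes of the table, each with a single identifier, and all 8 passed the filter on low counts that kept 15207 genes. *IL1B* and *IL18* were not analysed here.

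IL-1, IL-33 and IL-18 belong to one cytokine family. Each binds a receptor of its own, and the IL-1 and IL-33 receptors then recruit a shared accessory chain, encoded by *IL1RAP*, which passes the signal to NF-kB through the adaptor MyD88. The receptor antagonist encoded by *IL1RN* occupies the type 1 receptor (*IL1R1*) without recruiting that chain. IL-6 binds its own receptor (*IL6R*) and then gp130 (*IL6ST*), which signals through JAK kinases and STAT3, and TNF acts through its type 1 and type 2 receptors. Osteoprotegerin, the product of *TNFRSF11B*, is a secreted decoy that captures RANKL, the product of *TNFSF11*, before it reaches its receptor RANK (*TNFRSF11A*). In fat, macrophages are a known source of TNF and of the antagonist, and IL-33 is known from stromal cells and from mesothelium, the cell layer that covers the omentum.

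The 24 animals formed 4 groups of 6. Controls (*C*) carried cholesterol implants and ate monkey chow, the *T* group carried testosterone implants on the same chow, the *WSD* group ate a high-fat diet of Western style with cholesterol implants, and the *T* + *WSD* group received both treatments. Omental white adipose tissue (WAT) was taken by biopsy once treatment had run for 3 years. The labels give an age of 4 years for every animal, while the study's methods give an older one. By those methods the animals sequenced were picked to represent their groups in fat mass and insulin, so each group holds selected animals. Each replicate is a separate animal with 1 library.

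Counted reads ranged from 6899185 to 28270776 per animal, with a median of 20630512.5. In 8 libraries, 2 in each group, 1 gene (ENSMMUG00000038258) took 9.92 to 54.7% of all counts, against at most 2.51% in the other 16, and these 8 are treated as a library batch. The same 8 had the fewest counted reads, 6899185 to 17538167, against at least 20177588 in the other 16, so batch and depth coincide. The tissue carried its defining markers: the 9 adipocyte genes examined summed to between 2052 CPM, in a control, and 24736 CPM, in a *WSD* animal. The control median was 11689 CPM. By the mean log2 CPM of these genes control 1 stood lowest, at 6.22 against 8.31 to 9.75 in the other animals. Levels are given as CPM, counts scaled to the size of each library after TMM normalization. They are compared between animals and never between genes, because no gene lengths were used.

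The comparison of *T* + *WSD* with *C* asks what the combined treatment did. *IL33*, *IL1RAP* and *TNFRSF11B* were lower in *T* + *WSD* by the study's thresholds, which ask for a fold change over 1.5 with an adjusted p under 0.05 (edgeR's quasi-likelihood test, adjusted by Benjamini-Hochberg over all tested genes). No gene of the set was higher. These 3 of 8 stand beside 10.01% of all tested genes called in either direction, 4.72% called higher and 5.29% called lower. Without control 1, 5.87% of all tested genes were called, and DESeq2 with all animals called the same 3 genes of the set beside 10.9%. With an unadjusted p under 0.05, 4 of 8 were lower, beside 18.4% of all tested genes. The median log2 fold change of the 8 genes was -0.49, and that of all tested genes was -0.04. No gene of the set separated *T* + *WSD* from *C* completely, while 3.49% of all tested genes lay wholly above and 4.12% wholly below. In bulk tissue, fewer cells of a type and less RNA per cell cannot be told apart.

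**Figure D1:**
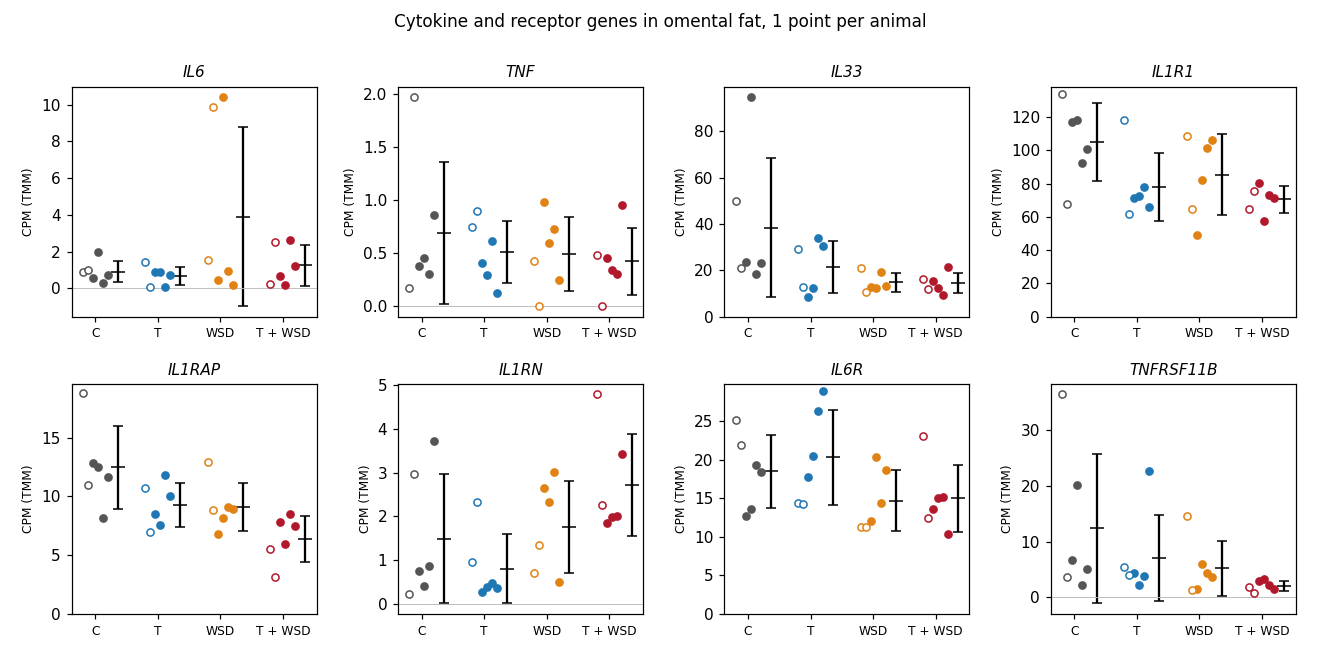
Level of each of the 8 measured genes in every animal. The vertical axes give TMM-scaled CPM, each point is 1 animal, open points are the 8 libraries of the library batch, and the bar beside each group is the mean ± SD over 6 animals. *IL1RAP* lies between 3.11 and 8.47 CPM in *T* + *WSD* and between 8.12 and 18.8 CPM in *C*, and 2 *WSD* animals stand apart for *IL6* near 10 CPM.

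*IL33* encodes an alarmin of the IL-1 family, a nuclear cytokine set free when cells are damaged. In controls it ranged from 18.2 to 94.9 CPM with a median of 23.3. In *T* it ranged from 8.32 to 34.05 (median 21.03), in *WSD* from 10.4 to 20.8 (median 13.05), with *T* + *WSD* from 9.16 to 21.5 (median 13.8). The control mean of 38.4 ± 30.0 CPM (SD, n = 6) was pulled up by animal 4 at 94.9 and animal 1 at 49.8, and the other 4 controls lay between 18.2 and 23.4. Of the *T* + *WSD* animals, 5 of 6 lay below every control, and animal 12 at 21.5 lay within the control range. *IL33* was 2.66-fold lower in *T* + *WSD* than in *C* (log2 fold change -1.41, SE 0.40, adjusted p = 0.0188). Without control 4 the difference was -0.91 and the adjusted p 0.0698.

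The *IL33* mean was 14.8 ± 4.16 CPM in *WSD* alone and 14.4 ± 4.34 in *T* + *WSD* (SD, n = 6 each). The log2 fold change of *WSD* against *C* was -1.38 (SE 0.39), with an unadjusted p of 0.00194 and an adjusted p of 0.131 in edgeR, and DESeq2 gave -1.37 with an adjusted p of 0.0310. In *T* the 6 values fell into 3 animals between 8.32 and 12.8 CPM and 3 between 29.2 and 34.05, and the difference from *C* was -0.86 (SE 0.39, adjusted p = 0.566). *T* + *WSD* and *WSD* differed by -0.03 (SE 0.39). The order of the group means was *C*, *T*, *WSD*, *T* + *WSD*, and neither *C* and *T* nor *WSD* and *T* + *WSD* differed by the thresholds (*T* and *WSD* were not compared). *IL1RL1*, which encodes the IL-33 receptor ST2, had means of 8.33 ± 3.35 CPM in *C* and 5.80 ± 2.53 in *T* + *WSD*, with an adjusted p of 0.473.

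*IL6* encodes interleukin 6, a cytokine made by many cells of fat. It was counted at low numbers, 1 to 264 per animal. Controls ranged from 0.307 to 1.98 CPM (median 0.818), *T* from 0.0898 to 1.42 (median 0.795), *WSD* from 0.166 to 10.4 (median 1.26), with *T* + *WSD* from 0.211 to 2.67 (median 0.954). The *WSD* group was split: animals 20 and 22 held 9.89 and 10.4 CPM, on 73 and 264 counts, and the other 4 held 0.166 to 1.55, none above the highest control. *IL6* in *WSD* was higher than in *C* by 2.08 on the log2 scale (SE 0.85), with an unadjusted p of 0.0226 and an adjusted p of 0.204, and was not called. Against *WSD*, the *T* + *WSD* group gave a log2 fold change of -1.68 (SE 0.85, adjusted p = 0.275), and against *C* it differed by 0.40 (SE 0.86, adjusted p = 0.796).

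The same 2 *WSD* animals held the 2 highest levels of *SOCS3*, which encodes an inhibitor of IL-6 signalling that is itself induced through STAT3. It stood at 72.9 CPM in animal 20 and 56.5 in animal 22, against 5.60 to 31.9 in the other 22 animals. *SOCS3* was singled out after these values were seen. Its group difference in *WSD* against *C* was 0.57 (SE 0.50, adjusted p = 0.560), and in *T* + *WSD* against *C* it was -1.26 (SE 0.52, adjusted p = 0.0941). Animal 20 belongs to the library batch and animal 22 does not.

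*TNF*, the founding cytokine of its family, was near the lower limit of what these libraries could count, with 0 to 24 counts per animal. The ranges were 0.169 to 1.97 CPM in *C* (median 0.416), 0.125 to 0.898 in *T* (median 0.507), 0 to 0.977 in *WSD* (median 0.507) and 0 to 0.957 in *T* + *WSD* (median 0.395). *WSD* animal 20 and *T* + *WSD* animal 8 had 0 counts, which allows up to 0.407 and 0.848 CPM at 3 counts. The 4 groups overlapped throughout, and the highest level, in control 2, rested on 12 counts. No comparison gave a *TNF* difference larger than its own standard error: the values ran from -0.41 (SE 0.62) in *T* + *WSD* against *C* to 0.15 (SE 0.86) for the interaction. With the mean of the macrophage markers as a covariate the former stood at -1.40 (adjusted p = 0.109), also not called. Counts this low limit the differences that could be detected for *TNF*.

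*IL1R1* encodes the signalling receptor for IL-1. Controls ranged from 68.0 to 134 CPM (median 109), *T* from 61.8 to 119 (median 72.1), *WSD* from 49.0 to 109 (median 91.8), with *T* + *WSD* from 57.8 to 80.4 (median 72.3). The *T* + *WSD* animals were the most alike, with a mean of 70.5 ± 8.08 CPM against 105 ± 23.3 in *C* (SD, n = 6 each), and 2 of them lay below every control. The log2 fold change of -0.58 (SE 0.19) had an adjusted p of 0.0383, but stayed just under the 1.5-fold threshold. It crossed that threshold without control 2 (-0.65, adjusted p = 0.0212), control 5 (-0.61, 0.0342), control 6 (-0.59, 0.0461) or *T* + *WSD* animal 9 (-0.62, 0.0470). In each of the other 8 fits that left out 1 animal the adjusted p was above 0.05, up to 0.117 without control 1 (-0.48). In *T* the difference from *C* was -0.43 (SE 0.19, adjusted p = 0.548), and in *WSD* it was -0.30 (SE 0.19, adjusted p = 0.391).

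*IL1RAP*, the accessory chain shared by the IL-1 and IL-33 receptors, showed the smallest p of the set. Its levels were 8.12 to 18.8 CPM in *C* (median 12.1), 7.01 to 11.8 in *T* (median 9.28), 6.80 to 12.95 in *WSD* (median 8.87) and 3.11 to 8.47 in *T* + *WSD* (median 6.71). In *T* + *WSD*, 5 of 6 animals lay below every control, and only animal 11 at 8.47 lay above the lowest control, animal 5. The gene was 1.91-fold lower than in *C* (log2 fold change -0.93, SE 0.21, adjusted p = 0.00677), and the call held with each of the 12 animals left out in turn, with values of -1.03 to -0.76.

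*IL1RAP* in the single-treatment groups lay between *C* and *T* + *WSD*. From a control mean of 12.5 ± 3.51 CPM it went to 9.27 ± 1.89 in *T*, to 9.12 ± 2.06 in *WSD* and, with both treatments, to 6.38 ± 1.96 (SD, n = 6 each). The log2 differences from *C* were -0.43 (SE 0.21) for *T* and -0.46 (SE 0.21) for *WSD*, with adjusted p values of 0.579 and 0.239. *T* + *WSD* differed from *WSD* by -0.47 (SE 0.21, adjusted p = 0.206) and from *T* by -0.51 (SE 0.21, adjusted p = 0.129). The interaction, the part of the combined effect not given by adding the single ones on the log scale, was -0.05 (SE 0.29, adjusted p = 0.978).

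*IL1RN* encodes the IL-1 receptor antagonist and was counted 4 to 91 times per animal. Controls ranged from 0.225 to 3.72 CPM (median 0.818), *T* from 0.284 to 2.34 (median 0.437), *WSD* from 0.499 to 3.01 (median 1.84), with *T* + *WSD* from 1.86 to 4.78 (median 2.14). Every *T* + *WSD* animal stood above 5 of the 6 *T* animals, and *T* animal 14, at 2.34 on 26 counts, stood apart from the other 5 at 0.284 to 0.972. *IL1RN* was 3.56-fold higher in *T* + *WSD* than in *T* (log2 fold change 1.83, SE 0.63), with an unadjusted p of 0.00836 and an adjusted p of 0.0776, and was not called. Without *T* animal 14 the difference was 2.47 and the adjusted p 0.0246, and DESeq2 with all animals gave 1.83 and 0.0329.

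Against *C*, *IL1RN* differed by 0.90 in *T* + *WSD* (SE 0.61, adjusted p = 0.326), by 0.31 in *WSD* (SE 0.61, adjusted p = 0.824) and by -0.93 in *T* (SE 0.63, adjusted p = 0.686). Its interaction term had the smallest p of the 8 genes, 1.52 (SE 0.87, unadjusted p = 0.0957, adjusted p = 0.468). Set against its receptor within each animal, there were 1.69 ± 1.83 *IL1RN* counts per 100 *IL1R1* counts in *C* (range 0.168 to 4.35). The ratio was 1.12 ± 1.31 in *T* (0.397 to 3.78), 2.40 ± 1.81 in *WSD* (0.470 to 5.41) and 3.94 ± 1.89 in *T* + *WSD* (2.31 to 7.39; SD, n = 6 each). The lowest *T* + *WSD* ratio exceeded the *C* median of 0.801 and the *T* median of 0.587, though all groups overlapped.

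*IL6R*, the IL-6 binding receptor, varied little between groups. The ranges were 12.7 to 25.1 CPM in *C* (median 18.8), 14.2 to 28.9 in *T* (median 19.04), 11.2 to 20.4 in *WSD* (median 13.2) and 10.4 to 23.1 in *T* + *WSD* (median 14.3). The groups overlapped in every comparison. The differences from *C* were -0.30 (SE 0.22) in *T* + *WSD*, -0.32 (SE 0.22) in *WSD* and 0.14 (SE 0.22) in *T*, with adjusted p values of 0.366, 0.438 and 0.883. Both groups on the diet had lower means, 14.7 ± 3.96 and 14.96 ± 4.35 CPM, than both groups on chow, 18.5 ± 4.76 and 20.3 ± 6.16, and *T* + *WSD* against *T* gave -0.45 (SE 0.22, adjusted p = 0.203). Its partner *IL6ST* had means of 695 ± 203 CPM in *C* and 529 ± 46.5 in *T* + *WSD*, where 5 of 6 animals lay below every control, with a difference of -0.39 (SE 0.15, adjusted p = 0.0698).

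*TNFRSF11B*, the gene of osteoprotegerin, had the largest log2 fold change of the 3 called genes. Controls ranged from 2.24 to 36.3 CPM (median 5.88), *T* from 2.18 to 22.6 (median 4.21), *WSD* from 1.36 to 14.6 (median 4.00), with *T* + *WSD* from 0.848 to 3.24 (median 2.01). Single animals set the upper end of each of the first 3 groups, with control 1 at 36.3, control 4 at 20.1, *T* animal 18 at 22.6 and *WSD* animal 19 at 14.6. No *T* + *WSD* animal exceeded 3.24, and 4 of 6 lay below the lowest control, the closest of them equal to it at 3 digits. The gene was 5.65-fold lower in *T* + *WSD* than in *C* (log2 fold change -2.50, SE 0.71, adjusted p = 0.0197). Without control 1 the difference was -1.78 and the adjusted p 0.0854.

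In *WSD* alone *TNFRSF11B* differed from *C* by -1.27 (SE 0.67, adjusted p = 0.312), and in *T* alone by -0.80 (SE 0.66, adjusted p = 0.747). *T* + *WSD* differed from *T* by -1.70 (SE 0.69, unadjusted p = 0.0226, adjusted p = 0.128) and from *WSD* by -1.23 (SE 0.70, adjusted p = 0.333). Counts were low in *T* + *WSD*, where animal 8 had 3 counts, so that a filter of at least 10 counts in every animal removed the gene.

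The 2 partners of osteoprotegerin were measured in the same animals. *TNFSF11*, the gene of RANKL, averaged 3.56 ± 4.15 CPM in *C* (0.307 to 11.2). The means were 0.6255 ± 0.373 in *T*, 0.392 ± 0.284 in *WSD* and, with both treatments, 0.968 ± 0.950 (SD, n = 6 each). Its highest values were in controls 1, 4 and 3, at 11.2, 4.91 and 3.37 CPM, and *WSD* animal 20 and *T* + *WSD* animal 8 had 0 counts. The difference from *C* was -3.05 (SE 0.78) in *WSD*, with an unadjusted p of 0.000724 and an adjusted p of 0.131, and -1.76 (SE 0.73, adjusted p = 0.0960) in *T* + *WSD*. *TNFRSF11A*, the gene of RANK, averaged 2.96 ± 1.58 CPM in controls, 2.95 ± 0.536 with testosterone, 3.32 ± 2.52 with the diet and 6.55 ± 2.43 with both. In *T* + *WSD* it was higher than in *C* by 1.14 (SE 0.42, adjusted p = 0.0619), and 3 of 6 animals lay above every control. Neither partner was called by the main edgeR fit in any comparison. Other edgeR fits called *TNFSF11* for the interaction, with the mean of the mesothelial or of the macrophage markers as a covariate. Without control 5, edgeR called it in *T* + *WSD* against *C*. *TNFRSF11A* was called by edgeR in *T* + *WSD* against *C* and against *T* with only the 2 groups compared, and against *C* without control 6. DESeq2 called *TNFSF11* in *WSD* against *C* and for the interaction, and *TNFRSF11A* in *T* + *WSD* against *C* and against *T*.

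**Figure D2:**
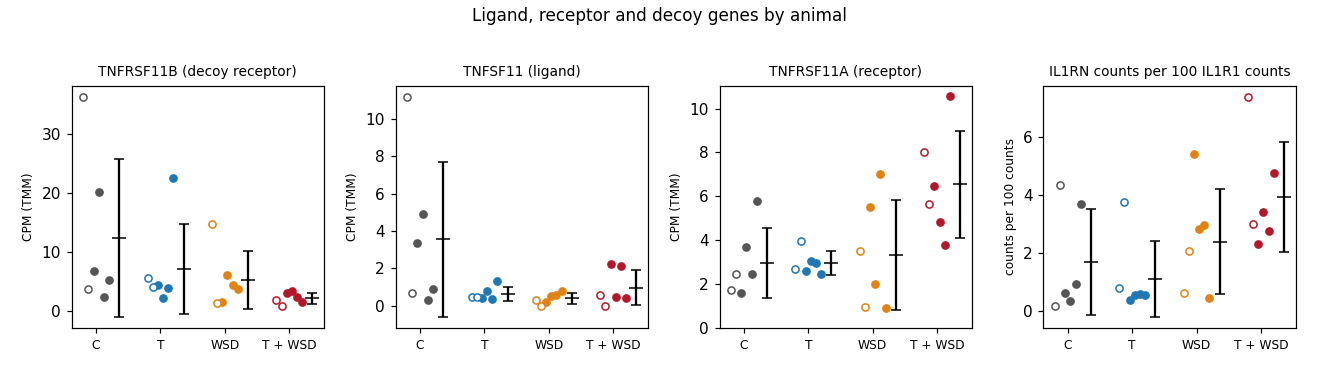
Osteoprotegerin (*TNFRSF11B*), its ligand gene *TNFSF11* and the receptor gene *TNFRSF11A* in CPM, and *IL1RN* counts per 100 *IL1R1* counts, with 1 point per animal, open points for the library batch and bars for the mean ± SD over 6 animals. *T* + *WSD* has the lowest decoy mean (2.09 CPM), the highest receptor mean (6.55 CPM) and the highest antagonist ratio (3.94).

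The 2 treatments given alone were compared with the same 6 controls, so the comparisons share those animals. With *WSD* against *C*, which asks what the diet did, 0 of the 8 genes were called by edgeR, beside 0% of all tested genes. Unadjusted p values under 0.05 were found for *IL6*, higher, and *IL33* and *IL1RAP*, lower, that is 1 gene higher beside 9.59% of all genes and 2 lower beside 8.87%. DESeq2 called 1 gene of the set, *IL33*, beside 1.58% of all genes it tested. With *T* against *C*, which asks what testosterone did on chow, 0 of 8 were called by edgeR, beside 0% of all tested genes, and 0 by DESeq2, beside 0.0290%. *IL33*, *IL1R1* and *IL1RAP* had unadjusted p values of 0.0372, 0.0318 and 0.0496, all lower, 3 of 8 beside 5.08% of all genes.

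Testosterone under the diet (*T* + *WSD* against *WSD*) gave 0 calls of 8 in edgeR, beside 0.815% of all tested genes, and 0 in DESeq2, beside 2.62%. *IL1RAP* was the 1 gene with an unadjusted p under 0.05, at 0.0337, lower, beside 12.1% of all genes. The diet in testosterone-treated animals (*T* + *WSD* against *T*) gave 0 calls of 8 in edgeR, beside 3.77%, and 1 in DESeq2, *IL1RN*, beside 6.10%. Unadjusted p values under 0.05 were found for *IL1RN*, higher, and for *IL1RAP* and *TNFRSF11B*, lower, that is 1 higher beside 11.6% of all genes and 2 lower beside 14.3%. The interaction of testosterone and diet, called at an adjusted p under 0.1, gave 0 of 8, beside 0.809% of all tested genes, and none had an unadjusted p under 0.05, beside 13.5%. DESeq2 also called 0 for the interaction, beside 2.77%.

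**Figure D3:**
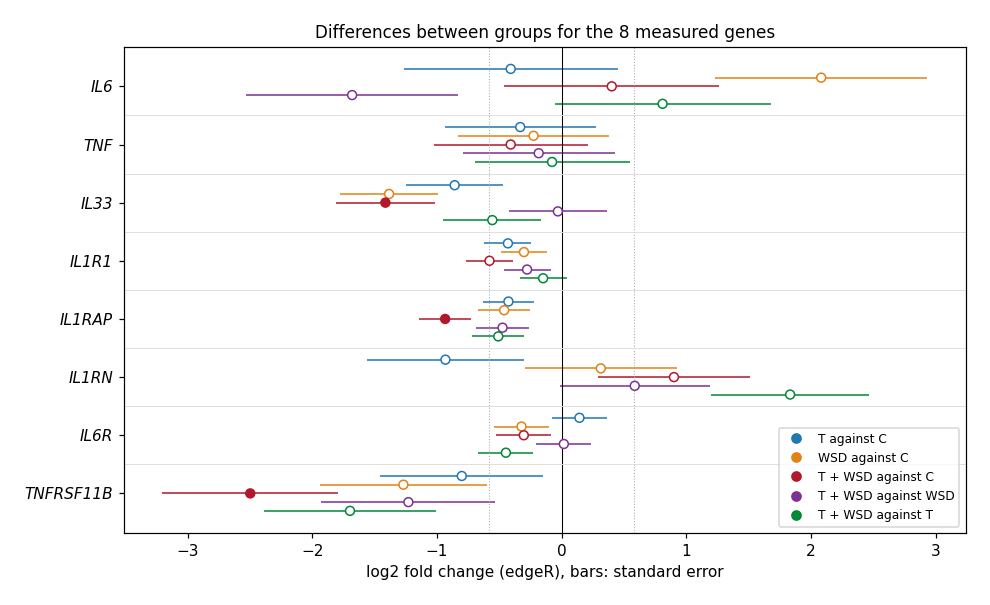
Log2 fold change of the 8 genes in 5 comparisons, with bars for the standard error, filled points for genes called, and dotted lines at a fold change of 1.5 in either direction. The 3 filled points are *IL33* (-1.41), *IL1RAP* (-0.93) and *TNFRSF11B* (-2.50) in *T* + *WSD* against *C*.

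Markers of other cell types moved with these genes. In *T* + *WSD* against *C*, 8 of the 9 mesothelial markers measured (of 11 listed) were called lower, beside 5.29% of all tested genes. *ITLN1*, *KRT18* and *MSLN* led them, and *CALB2* was the exception at 0.28. The summed level of the list ran from 2722 to 38893 CPM in *C*, 2784 to 17570 in *T*, 707 to 5977 in *WSD*, with 235 to 3070 in *T* + *WSD*, and no marker was at 0 in all 24 animals. *IL1RAP* and *TNFRSF11B* followed that list across the 24 animals, with Spearman's rho of 0.86 and 0.85 (Pearson's r 0.88 and 0.81) against its mean log2 CPM, and 0.74 and 0.86 once each group's mean was removed. For *IL33* these values were 0.70 and 0.51, and for *IL1R1* 0.66 and 0.59. Control 1 held the highest level of the mesothelial list, of *TNFRSF11B*, of *IL1RAP* and of *IL1R1*. Its mean log2 CPM of the adipocyte and of the macrophage markers, 6.22 and 4.10, was the lowest of the 24 animals. These points share libraries and groups, so the correlations are descriptions.

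When the mesothelial mean entered the model as a covariate, *IL33* in *T* + *WSD* against *C* stood at -0.46, *IL1RAP* at -0.09 and *TNFRSF11B* at 0.95, and 0 of the 15207 genes were called in that comparison. The list and the treatment moved together, so their parts in these differences cannot be told apart here. With the 16 libraries outside the library batch, 4 per group, the 3 differences were -1.44, -0.58 and -1.77 and none was called, beside 78 genes in all. With the library batch as a covariate all 3 were called.

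*IL1RN* and *TNF* followed the macrophage list instead. Its 10 measured markers (of 13 listed) summed to 361 to 1702 CPM in *C*, 602 to 1350 in *T*, 613 to 1344 in *WSD*, with 942 to 2330 in *T* + *WSD*. Of them 3, *MSR1*, *ITGAX* and *GPNMB*, were called higher in *T* + *WSD* against *C*, beside 4.72% of all tested genes. In that comparison 8 of the 10 had a positive log2 fold change and 2 a negative one, down to -0.38. Spearman's rho with the mean of that list was 0.80 for *IL1RN* (0.70 within groups) and 0.63 for *TNF* (0.75 within groups), and the Pearson values were 0.79 and 0.48. *TNF* also followed the 5 measured T and NK cell markers, with a rho of 0.71, none of which was called in *T* + *WSD* against *C*. With the macrophage mean as a covariate, *IL1RN* in *T* + *WSD* against *T* stood at 0.64 (adjusted p = 0.482), and *IL1RAP* was the 1 gene of the set called in *T* + *WSD* against *C*.

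**Figure D4:**
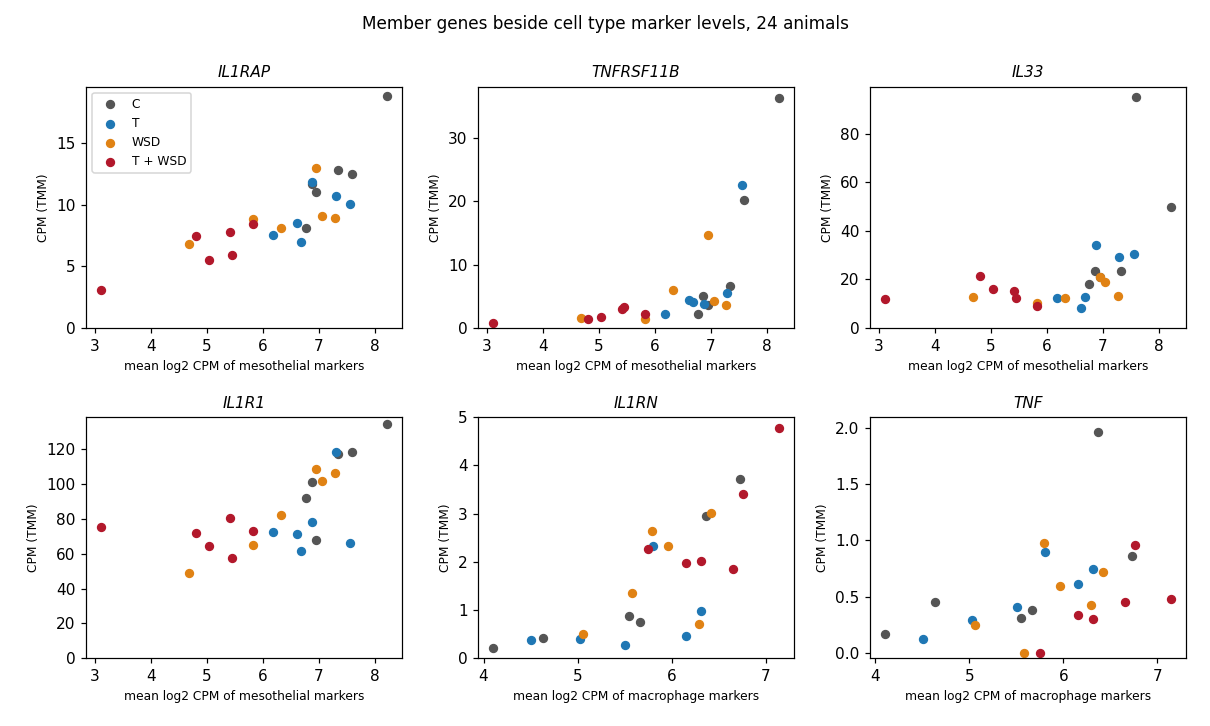
Levels of 6 genes (CPM, vertical axes) against the mean log2 CPM of mesothelial markers (first 4 panels) or macrophage markers (last 2 panels), 1 point per animal coloured by group. *IL1RAP* and *TNFRSF11B* are highest in the control with the most mesothelial signal (18.8 and 36.3 CPM), and the *T* + *WSD* animals lie toward the low mesothelial and the high macrophage end.

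In *T* + *WSD* against *C*, all 9 adipocyte markers had a positive log2 fold change and 1 was called higher, *LEP*. Of 7 endothelial markers 4 were called higher. Of 7 fibroblast markers 1 was called higher, and 3 had a negative log2 fold change. Of 6 neutrophil markers 2 were called lower, *S100A8* and *S100A9*, and the other 4 had a positive log2 fold change. Of all tested genes 4.72% were called higher and 5.29% lower. *IL33*, *IL1R1* and *IL1RAP* ran against the adipocyte mean, with a rho of -0.72, -0.67 and -0.76.

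The tested genes whose levels ran closest to each called gene, by Spearman's rho of log2 CPM over 24 animals, were listed for the 3. For *IL1RAP* they were *CXADR*, *HMGN4* and *TCEAL4*, with a rho of 0.93, 0.93 and 0.92. For *TNFRSF11B* they were *SCEL*, *KIFC3* and *WWC1*, with 0.93, 0.92 and 0.91, and for *IL33* they were *C1S*, *CFI* and *ADD3*, with 0.88, 0.84 and 0.84. Among the 8 genes themselves, *IL1RAP* and *TNFRSF11B* were the most alike, with a rho of 0.76 (0.65 within groups), followed by *IL1R1* and *IL1RAP* at 0.69 and *IL33* and *IL1RAP* at 0.67. *IL6* ran with none of them, its rho lying between -0.31, with *IL6R*, and 0.27, with *IL1R1*.

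A wider list of 104 genes of the IL-1, IL-6 and TNF pathways was examined around the set, of which 81 matched a row and 72 were tested. In *T* + *WSD* against *C*, 5 of 72 were called, 1 higher and 4 lower, beside 10.01% of all tested genes, and the median log2 fold change was -0.08. DESeq2 called the same 5 and also *IL11*, *HP* and *TNFRSF11A*, beside 10.9%. *IL11* and *HP* did not pass the filter on low counts used for edgeR and are not among the 72. With an unadjusted p under 0.05 there were 12 higher and 13 lower, beside 32.1% of all tested genes. *SIGIRR*, an inhibitory receptor of the IL-1 family, was higher, at 5.03 to 7.07 CPM in *T* + *WSD* and 2.69 to 4.60 in *C*, with all 6 animals above every control (0.61, SE 0.16, adjusted p = 0.0152). It was under the 1.5-fold threshold without control 3 (0.53) or *T* + *WSD* animal 8 (0.57). None of the other 4 tested IL-1 family receptor genes was called. In RefSeq's order on chromosome 13 (T2T-MMU8v2.0) *IL1R1* lay between *IL1R2* and *IL1RL2*, and these stood at -1.18 (adjusted p = 0.292) and -0.01 (0.989).

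In the TNF receptor family, *FAS*, a death receptor, and *TNFRSF12A*, the receptor of TWEAK, were called lower. For both, all 6 *T* + *WSD* animals lay below every control, beside 4.12% of all tested genes. *FAS* ranged from 10.7 to 17.98 CPM in *T* + *WSD* and from 22.9 to 46.3 in *C* (-1.16, SE 0.20, adjusted p = 0.00294). *TNFRSF12A* ranged from 5.09 to 11.2 and from 11.5 to 29.7 (-1.46, SE 0.40, adjusted p = 0.0165). The TNF receptors themselves were not called: *TNFRSF1A* differed by 0.03 (SE 0.09, adjusted p = 0.879) and *TNFRSF1B* by 0.41 (SE 0.20, adjusted p = 0.162). Of 11 NF-kB subunit and inhibitor genes and 9 genes of the IL-6 JAK-STAT chain none was called by the main edgeR fit in this comparison. With unadjusted p under 0.05 there were 3 higher and 1 lower, and 1 higher and 1 lower, beside 32.1% of all tested genes in either direction.

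Of 12 NF-kB and STAT3 target genes listed, 8 matched a row and only 4 were tested. Of those 4, *PTGS2*, the gene of cyclooxygenase 2, and *VCAM1*, an adhesion molecule, were called lower, beside 5.29% of all tested genes. *PTGS2* lay between 2.75 and 9.07 CPM in *T* + *WSD* and between 5.62 and 72.5 in *C* (-2.34, SE 0.68, adjusted p = 0.0223), and without control 1 it stood at -1.52 with an adjusted p of 0.112. *VCAM1* overlapped between the groups (-0.75, SE 0.25, adjusted p = 0.0424) and lost its call in 8 of the 12 fits that left out 1 animal. A further 4 genes had an adjusted p under 0.05 with a fold change under 1.5, namely *CFLAR* (0.55) and *CHUK* (0.37), higher, and *CD40* (-0.48) and *BIRC2* (-0.34), lower. Of the 5 called genes, *FAS* alone was called with the 16 libraries outside the batch, *FAS* and *TNFRSF12A* with the macrophage covariate, and 0 with the mesothelial covariate.

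**Figure D5:**
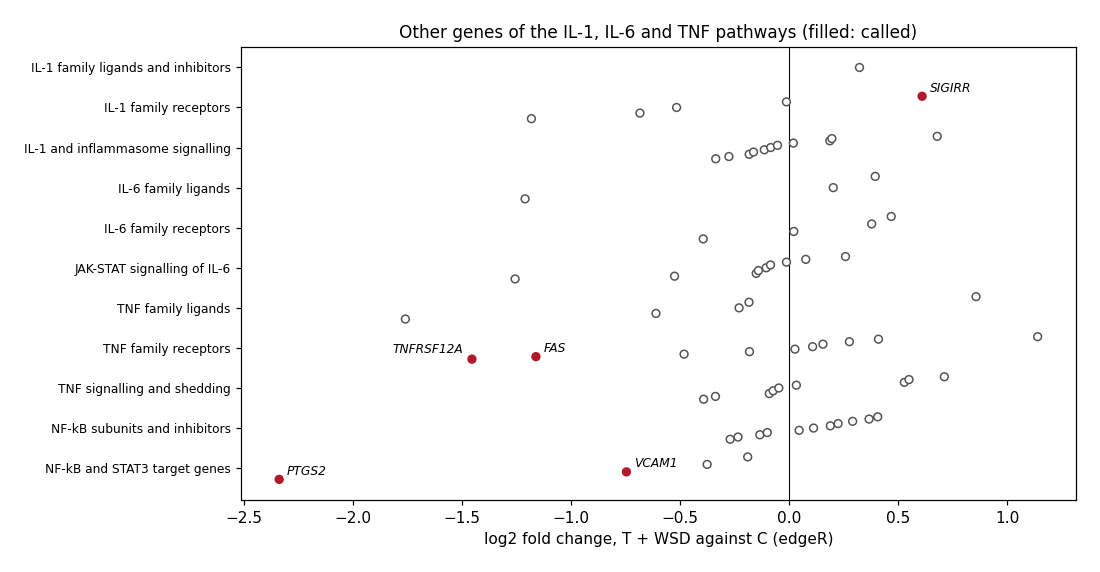
Log2 fold change in *T* + *WSD* against *C* of the 72 tested genes of the wider list, 1 row per group of genes and 1 point per gene, filled and named where called. The 5 named genes are *SIGIRR* (0.61), *VCAM1* (-0.75), *FAS* (-1.16), *TNFRSF12A* (-1.46) and *PTGS2* (-2.34), and the rest lie between -1.76 and 1.14.

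In *T* + *WSD* against *T*, 2 of the 72 genes were called, beside 3.77% of all tested genes. Both were lower and both were TNF receptor family members. Of the 72, 12 had an unadjusted p under 0.05, beside 25.9% of all genes. *CD40*, a receptor of antigen-presenting cells, ranged from 14.4 to 18.4 CPM in *T* + *WSD* and from 17.5 to 37.2 in *T* (-0.72, SE 0.16, adjusted p = 0.0137), with 5 of 6 animals below every *T* animal. *FAS* stood at -0.69 (SE 0.20, adjusted p = 0.0431), a call lost in 11 of the 12 fits that left out 1 animal. DESeq2 called both and also *TNFRSF11A* and *TNFRSF12A*, beside 6.10% of all genes it tested.

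In the other comparisons the main edgeR fit called 0 of the 72 genes, beside 0 to 0.815% of all tested genes. For the interaction 4 had an unadjusted p under 0.05, beside 13.5% of all genes, and DESeq2 called 2, *TNFSF11* and *IKBKB*, beside 2.77%. For testosterone under the diet 10 had an unadjusted p under 0.05, beside 19.98%, and DESeq2 called 2, *SOCS3* and *TNFRSF12A*, beside 2.62%. Testosterone alone gave 6 with an unadjusted p under 0.05, beside 8.63%, and 0 DESeq2 calls. The diet alone gave 14, beside 18.5%, and DESeq2 called 1, *TNFSF11*, beside 1.58%. The genes that DESeq2 called and the main edgeR fit did not are named because they were seen to be called.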

How the data were processed

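RNA from omental WAT biopsies with an RNA integrity above the study's minimum was depleted of ribosomal RNA (TruSeq Ribo-Zero) and sequenced as single reads. The authors trimmed reads with Trimmomatic 0.36, checked them with FastQC 0.11.5, aligned them to rheMac8 with STAR 2.5.2b and deposited raw counts per gene, unnormalized, with 1 column per animal. The tool that counted reads and its strand setting are not given in the sources used here. Whether reads of overlapping or antisense genes were told apart is therefore not known. Groups came from the sample labels. Of the 60 pairs of libraries within groups, 0 were identical.

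Counts were scaled by TMM and tested with the two-sided quasi-likelihood F-test of edgeR 4.0.16 under R 4.3.3, in 1 fit of 4 groups over 24 animals. The filter filterByExpr (minimum count 10, minimum total 15) kept 15207 genes, over which p values were adjusted by Benjamini-Hochberg. Genes were called at a fold change over 1.5 with an adjusted p under 0.05, the interaction at an adjusted p under 0.1. Marker means are log2 CPM with a prior count of 2. Floors (3 counts) cover counting error only. Standard errors were derived from the quasi-likelihood F-test, which takes in the spread between animals. The test was tested on simulated data. Of 12625 tested genes with a symbol, 211 took it from the study's supplementary tables and the rest from the gene name table. Alternatives were DESeq2 1.42.0, other normalizations, filters, thresholds, covariates, libraries and each animal left out.

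Named were all genes of the set, every gene of the wider list called in a comparison (at most 10, by adjusted p), the ligand, receptor and inhibitor genes of each chain, and the 3 genes most like each called gene. The genes and lists were chosen with earlier results of these data known. No sequences or gene positions were used, and gene order came from RefSeq's T2T-MMU8v2.0 table, another assembly.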

Additional observations from a re-analysis of the deposited data

Results flagged for a closer look

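Of the 32 combinations of gene and group, 5 held 1 animal far from the other 5 by Dixon's criterion. Its chance rate of about 1 in 20 holds for normal values and independent combinations. Here CPM were used without a log transform, all 5 flagged values were high, and the combinations share animals. The count is therefore not read as an excess over chance. *T* animal 13 held 119 CPM of *IL1R1* against 61.8 to 77.9 in the others, and it belongs to the library batch. *T* animal 14, of the same batch, held 2.34 CPM of *IL1RN* against 0.284 to 0.972, on 26 counts. *T* animal 18, outside the batch, held 22.6 CPM of *TNFRSF11B* against 2.18 to 5.53, on 722 counts. *WSD* animal 19, in the batch, stood apart for both *IL1RAP*, at 12.95 CPM against 6.80 to 9.08, and *TNFRSF11B*, at 14.6 CPM against 1.36 to 6.04. No interaction of testosterone and diet in the 8 genes had an unadjusted p under 0.05, and why these animals stood apart was not tested.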

How the results depend on the processing

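The calls of *IL33*, *IL1RAP* and *TNFRSF11B* in *T* + *WSD* against *C* held under RLE and upper-quartile normalization, no filter on low counts, a fit without robust estimation, the library batch as a covariate, the dominant gene left out, only the 2 groups compared, and DESeq2. A fold change over 2 kept *IL33* and *TNFRSF11B*, and at least 10 counts in every animal left *TNFRSF11B* untested. Counts near the floor limit *TNF*, *IL6* and *IL1RN*. The number of genes called in *T* + *WSD* against *C* was 0 with the mesothelial covariate, 1 with the macrophage covariate and 0 with the 16 libraries outside the batch. It was 1 (*IL33*) in *WSD* against *C* with DESeq2, and 1 (*IL1RN*) in *T* + *WSD* against *T* with DESeq2, with the 2 groups alone and with the 16 libraries, and 0 to 1 with 1 animal left out. The cause of these shifts was not tested. Over all tested genes, the number called in *T* + *WSD* against *C* was 1522 in edgeR, 840 with a fold change over 2, 2603 with no fold threshold, 762 with the macrophage covariate and 78 with the 16 libraries. Leaving out 1 animal, it ran from 900 (without control 1) to 1790. It ran from 9 to 448 (without *WSD* animals 24 and 21) around 124 in *T* + *WSD* against *WSD*, from 238 to 738 around 574 in *T* + *WSD* against *T*, from 40 to 527 (without *T* animal 15 and *WSD* animal 21) around 123 for the interaction, and from 0 to 59 (without *WSD* animal 19) in *WSD* against *C*. No paired analysis was possible because the groups share no replicate numbers.

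None of the following values, whose sign differed from that reported, was called. With the mesothelial covariate, *T* + *WSD* against *C* gave *IL1R1* 0.015, *IL1RN* -0.12, *IL6R* 0.058 and *TNFRSF11B* 0.95, and *WSD* against *C* gave *IL1RN* -0.064 and *TNFRSF11B* 0.37. *T* + *WSD* against *WSD* gave *IL33* 0.51, *IL1R1* 0.12, *IL1RN* -0.052 and *TNFRSF11B* 0.57, and *T* + *WSD* against *T* gave *IL33* 0.22, *IL1R1* 0.33, *IL1RAP* 0.16 and *TNFRSF11B* 1.003. The interaction gave *TNF* -0.16, *IL1RAP* 0.25, *IL6R* 0.028 and *TNFRSF11B* 0.63. With the macrophage covariate, *T* + *WSD* against *WSD* gave *IL33* 0.10 and *IL1RN* -0.20, and the interaction *TNF* -0.61. With the 16 libraries, *TNF* was 0.051 in *T* + *WSD* against *C*, 0.35 in *WSD* against *C* and 0.53 in *T* + *WSD* against *T*, *IL6R* 0.037 in *WSD* against *C* and -0.26 in *T* + *WSD* against *WSD*, *IL33* 0.031 in the latter, and *IL1RAP* 0.10 for the interaction. That interaction was 0.021 with upper-quartile normalization, 0.012 with at least 10 counts in every animal and 0.0042 with DESeq2. *T* + *WSD* against *WSD* gave *IL33* 0.027 with upper-quartile normalization and *IL6R* -0.013 with no filter.

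Leaving out 1 animal at a time, the ranges that crossed 0 were, in *T* + *WSD* against *C*, *IL6* -0.088 to 0.83 and *TNF* -0.82 to 0.11, in *T* against *C*, *IL6* -0.70 to 0.023 and *TNF* -0.54 to 0.17, and in *WSD* against *C*, *TNF* -0.52 to 0.28. In *T* + *WSD* against *WSD* they were *TNF* -0.59 to 0.11, *IL33* -0.19 to 0.083 and *IL6R* -0.14 to 0.13, and in *T* + *WSD* against *T*, *TNF* -0.49 to 0.13 and *IL1R1* -0.21 to 0.0063. For the interaction they were *TNF* -0.35 to 0.44, *IL1RAP* -0.19 to 0.075 and *TNFRSF11B* -1.11 to 0.41.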
